A study of Mus musculus with 2 samples.

Results

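H3K4me1 regions at 5 myeloid and erythroid loci were examined in mouse pre-B cells: the genes Cebpa, Csf1r and Gata2, the beta-globin cluster (Hbb-b1) and the alpha-globin cluster with its upstream enhancers (Hba-a1). Each locus was a fixed window of the mouse build mm9, and every called region overlapping it by at least 1 base was taken. Regions were thus taken by position only and by no measured value. The loci themselves were chosen with earlier results of these data known. The 5 windows held 33 of the 48130 regions in the series: 6 at Cebpa, 7 at Csf1r, 7 at Gata2, 4 at beta-globin and 9 at alpha-globin.

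The cells were pre-B cells, taken per the labels from the bone marrow of C57BL/6 mice (strain label B6) of genotype RAG1-/-, aged 6 to 14 weeks and of both sexes. The mice carried a rearranged IgM transgene. Without Rag1, B cell precursors cannot rearrange their antigen receptor genes, and the heavy chain here comes from the transgene; both libraries of the series share this background. Chromatin immunoprecipitation and sequencing (ChIP-seq) gave 1 library with an antibody to H3K4me1, histone H3 monomethylated at lysine 4, and 1 input library without antibody, against which the regions were called. The labels do not state how many mice each library came from. Per the file header, 50945360 tags were counted in the immunoprecipitated library. With 1 library per group there is no replicate error, and no difference below was tested.

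H3K4me1 is laid down at enhancers, including ones that are primed without being active, and on the flanks of active promoters. Cebpa encodes a transcription factor that drives granulocyte and monocyte development and that can turn B cells into macrophage-like cells when forced on. Csf1r encodes the receptor for macrophage colony-stimulating factor, and Gata2 a transcription factor of blood stem and progenitor cells and mast cells. The globin clusters encode the chains of haemoglobin and are transcribed in red cell precursors, under distal enhancers that for the alpha cluster lie partly inside the neighbouring gene Nprl3. None of the 5 members is a gene of the B cell programme.

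Promoter sequences are shown for the members found in the table of RefSeq promoters used here, to set out what kind of promoter each locus holds. They carry GRCm38.p6 positions, which cannot be compared with the mm9 positions below. The promoter table matched 3 of the 5 members (Cebpa, Gata2 and Hba-a1) and not Csf1r or Hbb-b1; Hbb-bs, an adult beta-globin gene of the same cluster, is shown. Each sequence runs 5′ to 3′ from 250 bases before the transcription start to 50 after it, and capitals mark TATAA on the strand of the gene, and CCAAT and GATAA on both strands (ATTGG and TTATC on the other).
Cebpa (chr7:35119043-35119342, plus strand): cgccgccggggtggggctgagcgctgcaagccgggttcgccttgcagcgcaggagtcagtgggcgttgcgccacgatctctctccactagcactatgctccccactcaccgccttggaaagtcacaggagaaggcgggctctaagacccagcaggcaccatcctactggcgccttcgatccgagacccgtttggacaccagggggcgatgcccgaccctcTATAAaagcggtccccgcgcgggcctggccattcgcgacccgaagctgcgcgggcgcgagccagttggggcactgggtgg
Gata2, upstream start (chr6:88193641-88193940, plus strand): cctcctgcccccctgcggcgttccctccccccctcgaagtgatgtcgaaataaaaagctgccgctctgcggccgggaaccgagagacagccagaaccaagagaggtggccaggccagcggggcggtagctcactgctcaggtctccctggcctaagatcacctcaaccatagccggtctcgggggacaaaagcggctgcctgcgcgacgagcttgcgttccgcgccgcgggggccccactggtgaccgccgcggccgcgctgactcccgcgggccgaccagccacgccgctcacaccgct
Gata2, downstream start (chr6:88198414-88198713, plus strand): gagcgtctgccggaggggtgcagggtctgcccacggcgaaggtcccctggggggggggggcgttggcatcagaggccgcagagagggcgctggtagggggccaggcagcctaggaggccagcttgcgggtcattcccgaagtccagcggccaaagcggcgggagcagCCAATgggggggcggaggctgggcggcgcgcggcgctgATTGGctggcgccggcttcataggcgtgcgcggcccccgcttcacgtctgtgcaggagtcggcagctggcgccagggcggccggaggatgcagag
Hba-a1 (chr11:32283422-32283721, plus strand): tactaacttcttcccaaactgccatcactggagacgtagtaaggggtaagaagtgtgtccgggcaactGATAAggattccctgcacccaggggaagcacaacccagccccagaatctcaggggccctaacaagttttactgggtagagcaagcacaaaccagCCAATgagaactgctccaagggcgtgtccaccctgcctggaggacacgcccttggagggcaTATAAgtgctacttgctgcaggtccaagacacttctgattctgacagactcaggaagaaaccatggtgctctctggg
Hbb-bs (chr7:103827879-103828178, minus strand): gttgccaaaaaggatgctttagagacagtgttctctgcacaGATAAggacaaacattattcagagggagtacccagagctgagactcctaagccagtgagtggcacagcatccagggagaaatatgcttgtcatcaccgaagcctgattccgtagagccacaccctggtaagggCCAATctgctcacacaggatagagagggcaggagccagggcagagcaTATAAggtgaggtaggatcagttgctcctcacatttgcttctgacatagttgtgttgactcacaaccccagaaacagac

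The transcription factor genes and the globin genes differed in these sequences. Cebpa had 29 CG dinucleotides, and the Gata2 starts had 32 and 29, beside a median of 7 over 32841 promoters of the same length. Hba-a1 had 4 and Hbb-bs had 2. TATAA was found in Cebpa, Hba-a1 and Hbb-bs, at 30, 27 and 29 bases before the start as counted by its first base, and in 17.5% of all promoters. CCAAT was found in the downstream Gata2 promoter, Hba-a1 and Hbb-bs (37.4% of all promoters). GATAA, the core of the motif bound by GATA factors, was found in both globin promoters and in 25.4% of all. These matches describe letters in a window and are not shown to be bound sites. Where each promoter lies among the mm9 regions was not analysed here, because no mm9 annotation was used.

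All 5 windows contained H3K4me1 regions. To give a background, chromosomes 1 to 19 were divided end to end into tiles of the same length as each window, and 49.1% of 110 kb tiles, 53.6% of 150 kb tiles, 54.5% of 160 kb tiles and 55.2% of 170 kb tiles held at least 1 region. A stretch of this length with a region in it was thus common in this genome. The windows were chosen around genes and the tiles were not, which this comparison does not take into account.

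**Figure D1:**
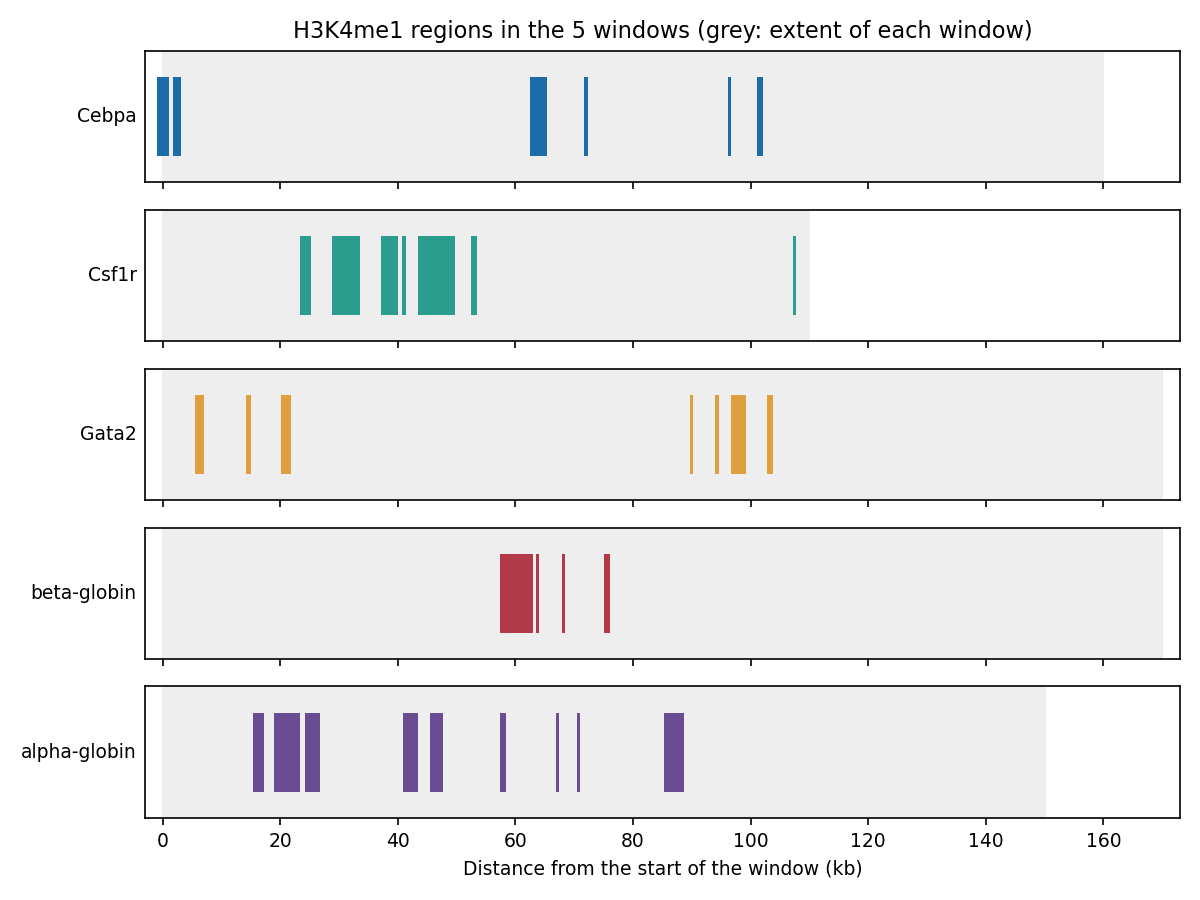
Positions of the 33 H3K4me1 regions (coloured blocks) along each window, as distance in kb from the start of that window; grey marks the window. The 4 beta-globin regions lie within 18.8 kb, whereas the Gata2 regions form groups of 3 and 4 with 67.9 kb between them.

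The Csf1r window carried the densest marking of the 5. Its 110 kb (chromosome 18, 61220000 to 61330000) held 7 regions, 6.36 per 100 kb, and 18.0 kb or 16.3% of its bases lay inside regions. Among 110 kb tiles, 11.9% held at least as many regions and 8.72% had at least as many covered bases.

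The first 6 Csf1r regions lay close together, from 61243428 to 61273509. They spanned 30.1 kb, of which 58.0% was covered, with gaps of 0.789 to 3.57 kb. In order, the regions were 1776 bases (61243428 to 61245203), 4860 bases (61248772 to 61253631), 2922 bases (61257073 to 61259994), 654 bases (61260784 to 61261437), 6163 bases (61263487 to 61269649) and 1078 bases (61272432 to 61273509) long. The 6163-base region was the longest of all 33, and 6.09% of the whole list was longer. After an unmarked stretch of 53.8 kb, a last region of 501 bases (61327285 to 61327785), the shortest length in the list, lay near the end of the window. RefSeq places Pdgfrb, another receptor tyrosine kinase gene, before Csf1r and Hmgxb3 after it. Which of these genes each region lies in was not analysed here.

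The alpha-globin window held more regions than any of the other 4 windows. In 150 kb (chromosome 11, 32080000 to 32230000) there were 9 regions, 6.00 per 100 kb, covering 18.9 kb or 12.6%. At least 9 regions were found in 12% of 150 kb tiles, and at least as many covered bases in 12.2%. On chromosome 11 alone, the share of tiles with at least 9 regions was 21.8%.

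The alpha-globin regions ran from 32095398 to 32168621 in 3 groups, taking gaps of up to 12500 bases as within a group. The first group had 3 regions, of 1758 bases (32095398 to 32097155), 4418 bases (32099000 to 32103417) and 2643 bases (32104181 to 32106823), and 77.2% of its 11.4 kb was covered. The second had 5 regions over 30.1 kb with 22.5% covered. Its members were 2566 bases (32120923 to 32123488), 2130 bases (32125494 to 32127623), 1072 bases (32137403 to 32138474), and 501 bases at both 32146834 to 32147334 and 32150534 to 32151034. Marking within the second group thus became shorter along the chromosome. The third group was a single region of 3313 bases (32165309 to 32168621), 14.3 kb further on. The remaining 61.4 kb of the window, 40.9% of it, had no called region. In RefSeq gene order, the DNA repair gene Mpg and Nprl3 come before the embryonic gene Hba-x, followed by Hba-a1, Hbq1b, Hba-a2 and Hbq1a. The regions were not assigned to any of these genes.

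In the Gata2 window the regions lay at each end of a long unmarked stretch. Its 170 kb (chromosome 6, 88050000 to 88220000) held 7 regions, 4.12 per 100 kb, covering 8.80 kb or 5.18%. Of 170 kb tiles, 21.6% held at least 7 regions and 27.3% had at least as many covered bases.

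The first Gata2 group comprised regions of 1634 bases (88055459 to 88057092), 827 bases (88064218 to 88065044) and 1682 bases (88070080 to 88071761). No region was called over the next 67.9 kb. The second group comprised regions of 501 bases (88139657 to 88140157), 635 bases (88144029 to 88144663), 2478 bases (88146742 to 88149219) and 1042 bases (88152840 to 88153881), within 14.2 kb of which 32.7% was covered. Beyond it lay 102.8 kb without a region, so that this second group stood apart on both sides. Of the 3378 groups of at least 4 regions on the autosomes, 3.17% had at least 67.9 kb of unmarked sequence on each side. RefSeq lists Rpn1, a subunit of the oligosaccharyltransferase, before Gata2, and Dnajb8 and Eefsec after it.

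In the Cebpa window the regions lay in 3 separate places. In 160 kb (chromosome 7, 35840000 to 36000000) 6 regions, 3.75 per 100 kb, covered 7.69 kb or 4.81%. At least 6 regions were found in 23.8% of 160 kb tiles and at least as many covered bases in 28.1%.

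With gaps of up to 12500 bases taken as within a group, the Cebpa regions formed 3 pairs. The first pair, of 2007 bases (35839118 to 35841124, across the edge of the window) and 1263 bases (35841794 to 35843056), was separated by 669 bases. The second pair followed after 59.4 kb, with regions of 2967 bases (35902450 to 35905416) and 737 bases (35911657 to 35912393). The 2967-base region was the longest in the window and held 34.6% of the bases in its regions. The third pair was of 501 bases (35936158 to 35936658) and 1099 bases (35941059 to 35942157), and no region followed within the window. In RefSeq order, Cebpg, a related C/EBP factor, and Pepd precede Cebpa, and the amino acid transporter gene Slc7a10 and Lrp3 follow.

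The beta-globin window had the fewest regions, and they stood alone in a long unmarked part of chromosome 7. In 170 kb (110900000 to 111070000) there were 4 regions, 2.35 per 100 kb, covering 7.61 kb or 4.48%. At least 4 regions were found in 34.3% of 170 kb tiles and at least as many covered bases in 29.7%. The median 170 kb tile held 1 region and had 0.676% of its bases covered. By number and coverage this window was thus above the median tile, at a level that many tiles reached.

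All 4 beta-globin regions lay between 110957339 and 110976100, within 11.0% of the window. The first was 5589 bases long (110957339 to 110962927), the second longest of the 33, and held 73.4% of the bases in the window's regions. After 519 bases came a region of 501 bases (110963447 to 110963947), then another of 501 bases (110968007 to 110968507) and one of 1021 bases (110975080 to 110976100). The nearest region before the group lay 1122 kb away and was 501 bases long (109834903 to 109835403). The nearest after it lay 341.6 kb away and was 1254 bases long (111317700 to 111318953).

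Such isolation was rare in the list. Of 48109 gaps between neighbouring regions, 0.734% were at least as long as the one before the beta-globin group and 2.36% at least as long as the one after it. Among the 3378 groups of at least 4 regions, 5 (0.148%, the beta-globin group included) had at least 341.6 kb free on both sides. Of those 5, the beta-globin group alone also had a longer gap of at least 1122 kb. These counts were taken after the positions had been seen. In RefSeq order the cluster holds Hbb-bt, Hbb-bs, Hbb-bh2, Hbb-bh1 and Hbb-y, the last encoding an embryonic chain, and the genes before Hbb-bt are the olfactory receptor genes Olfr67 and Olfr68, which belong to a family used in smell.

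The beta-globin window had 0 regions in the adjacent 170 kb on each side, whereas every other window had regions in both flanks. At Cebpa the flanks of 160 kb held 7 and 5 regions with 5.22% and 4.59% of bases covered, close to the 4.81% of the window. The 7 include the region across the window edge, which is also counted in the window, with its bases divided between them. At Csf1r the flank before the window held 7 regions and 15.5% covered bases, and the one after it 4 regions and 5.89%. The flanks of the Gata2 window were unequal, with 8 regions and 10.9% before it and 1 region and 0.457% after it. At alpha-globin they held 8 regions and 13.1% before, and 3 regions and 2.10% after. The coverage of the Csf1r and alpha-globin windows was therefore like that of the stretch before each, and only the beta-globin and Csf1r windows were covered more than both of their flanks.

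**Figure D2:**
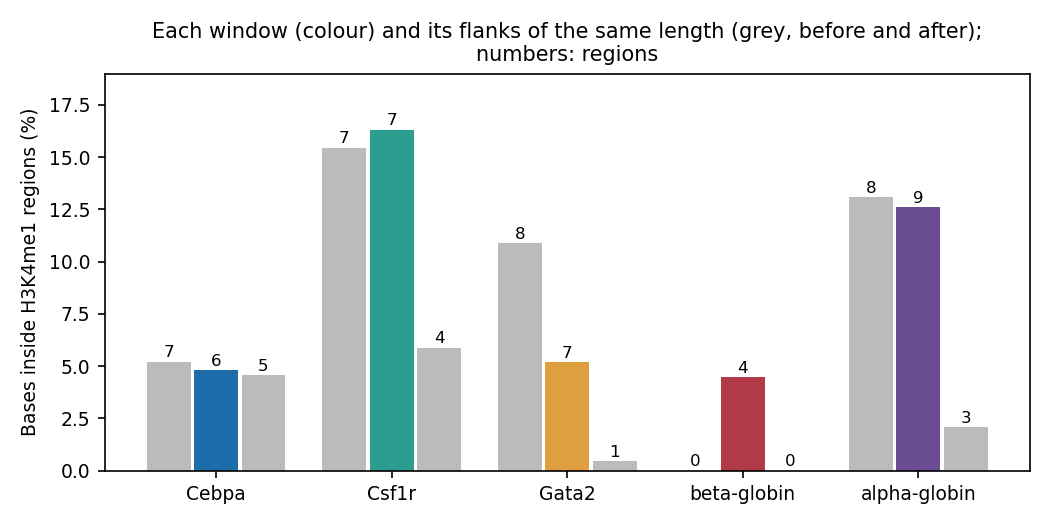
Percent of bases inside H3K4me1 regions in each window (coloured bar) and in the adjacent stretches of the same length before and after it (grey bars); the number above a bar is the count of regions. Both beta-globin flanks are at 0, beside 4.48% in the window. A region across a window edge is counted on both sides of it.

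**Figure D3:**
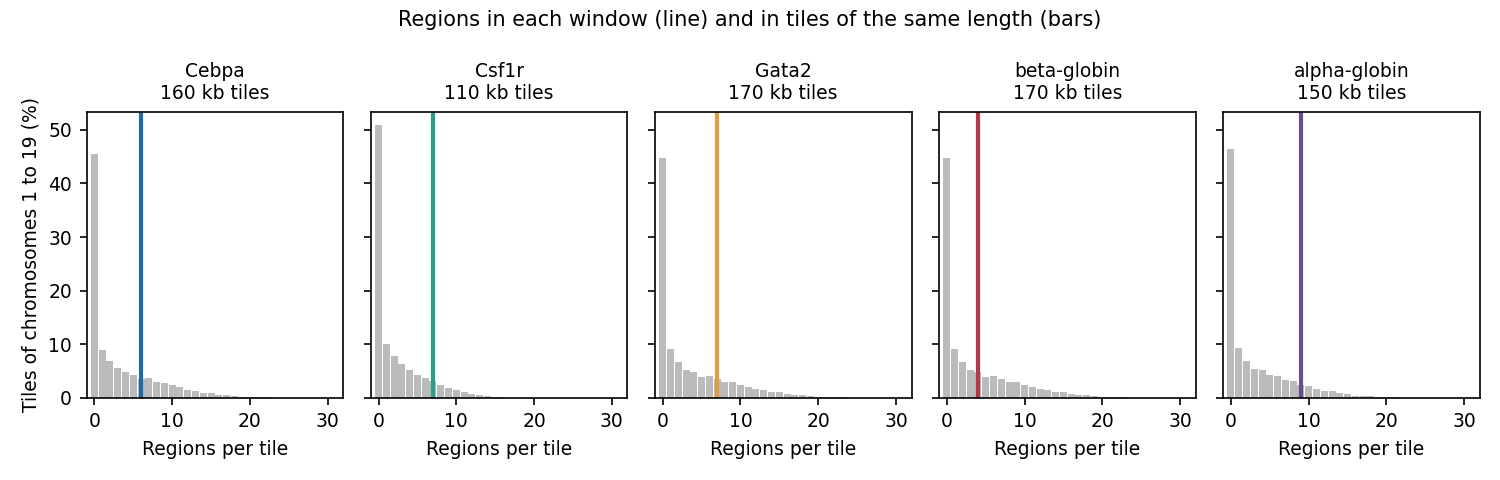
Share of tiles of chromosomes 1 to 19 (vertical axis, percent) by their number of H3K4me1 regions (horizontal axis), in tiles of each window's length; the coloured line is the window's own number. The lines at 7 (Csf1r) and 9 (alpha-globin) regions lie farthest out, with 11.9% and 12% of tiles at or beyond them.

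The 33 regions were close to the whole list in the shares reaching 1000 and 2000 bases. They had a larger share at the shortest length and a smaller share of at least 5000 bases, on small counts. Their median was 1263 bases, beside 1497 in the list. There were 22 (66.7%) of at least 1000 bases, beside 67.6% of all regions, and 12 (36.4%) of at least 2000 bases, beside 37.5%. Only 2 reached 5000 bases, at Csf1r and beta-globin, and 8.92% of all regions did. At the shortest length of 501 bases there were 7 regions (21.2%), at least 1 in every window, beside 14.3% of the list. Medians by window were 2130 bases at alpha-globin, 1776 at Csf1r, 1181 at Cebpa, 1042 at Gata2 and 761 at beta-globin.

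Closely spaced neighbours, with under 1000 bases between them, occurred once in each window except Gata2. The gaps were 519 bases at beta-globin, 669 at Cebpa, 763 at alpha-globin and 789 at Csf1r, whereas the smallest at Gata2 was 2078. These 4 were among 28 gaps inside the windows, and 11.9% of all gaps in the list were under 1000 bases. Per the file header, calling used 500-base peaks with a minimum distance of 1000 bases between peaks, which limits how short a gap can be.

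Signal per region was not used here, but the deposited list has an order that follows length closely. The median length was 6798 bases in the first of 10 equal parts of the list and 501 in the last, with a Spearman correlation across regions of -0.97 between length and place (48130 regions of 1 library, given as a description). The file header does not state what the list is sorted by. Some members stood far from regions of like length, taken as within 5% of their own.

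Of the 33 members, 6 were listed after at least 95% of the regions of like length and 1 after under 5%, limits set after the values were seen. By construction, each limit takes in roughly 5% of any list. The exact shares over the whole list were not counted, and the 6 and the 1 were not tested against them. The late ones came from all 5 windows. At Gata2 the 2478-base region was at place 23138, after 98.7% of its like, and its 1042-base neighbour at place 38315, after 99.7%. The 5589-base beta-globin region was at place 8000, after 98.8%. The others were a 501-base alpha-globin region (32150534 to 32151034) at place 47979, after 97.8%, the 654-base Csf1r region at place 43982, after 96.0%, and the 737-base Cebpa region at place 41794, after 95%. The early one was the 4860-base Csf1r region at place 2372, after 1.94% of its like. Next earliest was the 1263-base Cebpa region, at place 22569 and after 11.2%. The Csf1r window thus held both a late and the early member. Of all 33 members, 17 were listed later than the median region of like length and 16 earlier. A median divides any list about evenly, so this is the split of the list at large.

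**Figure D4:**
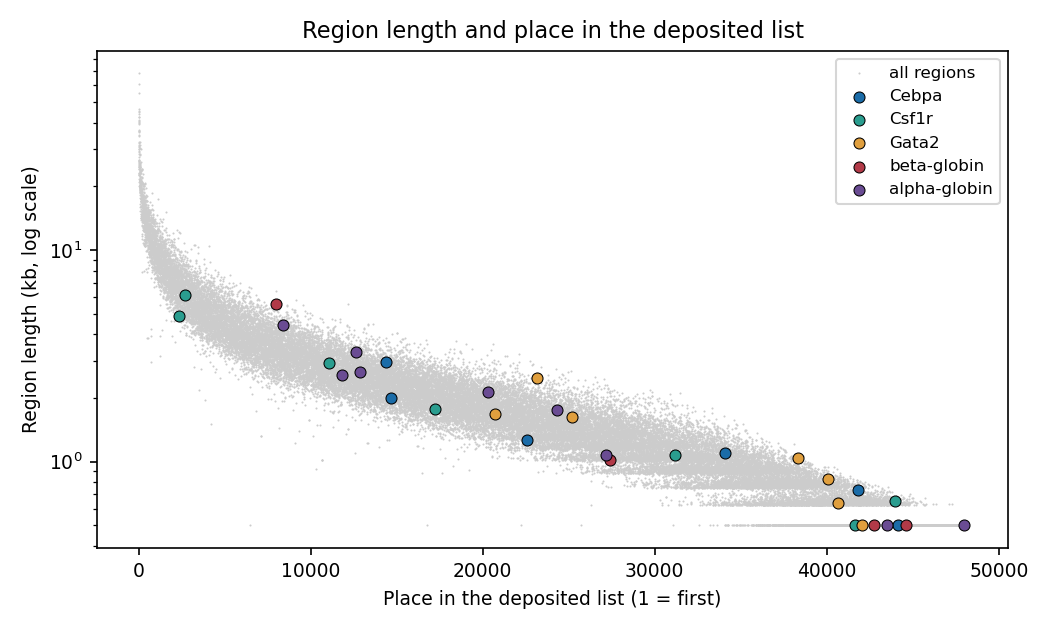
Region length in kb (log scale) against place in the deposited list, for all 48130 regions (grey points) and the 33 regions of the 5 windows (coloured circles). The 5589-base beta-globin region and the 2478-base Gata2 region lie at the upper edge of the grey cloud, and the 4860-base Csf1r region at its lower edge.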

How the data were processed

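Alignment and calling involved Bowtie 0.12.9 and HOMER 4.7 on mm9, as the submitters' processing notes list them. Per the file headers, HOMER's findPeaks called H3K4me1 regions in histone style against input, stitching 500-base peaks of at least 26 tags that passed a 4-fold threshold over input. The score column deposited by the authors is 1 in every region and was not used. Positions are printed counting from 1.

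From the list, regions overlapping each window by 1 base or more were counted, and covered bases were clipped to the window. Tiles ran from the first to the last region of chromosomes 1 to 19. Regions up to 12500 bases apart formed groups. Because each window held at most 12 regions, every region is given, and the 5 members are named whatever their values. Genes beside a member are among the 3 nearest protein-coding genes on each side in RefSeq (GRCm38.p6), used for names, order and promoter sequences only. The members and lists were chosen with earlier results of these data known. The counting steps were tested on simulated data. Python 3.11.15, numpy 2.4.6, scipy 1.17.1 and matplotlib 3.10.9 were used.

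Alternatives covered the overlap rule, region length, window edges, tiles, flanks and grouping distance. No test was made, having 1 library per group. The header does not give the depth of the input, and how near each region lies to the calling threshold is unknown. Unmarked means without a called region, and whether reads could be placed uniquely in such stretches was not examined. The labelled cell type could not be checked against marker genes, since no gene was placed on mm9.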

Additional observations from a re-analysis of the deposited data

How the results depend on the processing

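No paired analysis was possible because each group had 1 library. Of 84 alternatives, 55 kept their value within the limits set (1.5 times for counts, a 95% Wilson interval for shares, over 500-base steps for covered bases) and 29 moved. Keeping only regions of at least 1000 bases left 4 regions at Gata2 and 2 at beta-globin. With that list, the share of tiles with at least as many regions became 24.6% (Cebpa), 12.4% (Csf1r), 26.0% (Gata2), 39.3% (beta-globin) and 10.4% (alpha-globin). Over tiles holding at least 1 region it was 43.7%, 24.2%, 39.0%, 62.1% and 22.3% in the same order, fewer tiles by construction. By covered bases it was 28.1%, 8.72%, 27.3% and 29.7% for the first 4, and on the window's own chromosome 8.43% at Csf1r, 20.1% at Gata2 and 21.8% at alpha-globin. Flanks of 500 kb held 2.40 regions per 100 kb at Cebpa (3.75 in the shorter flanks), 4.50 at Gata2 (2.65) and 1.5 at beta-globin (0). Grouping over gaps of up to 5 kb gave 4 groups at Cebpa, 4 at Gata2, 2 at beta-globin and 5 at alpha-globin. Gaps of up to 25 kb gave 2 groups at Cebpa and 1 at alpha-globin. At 5 kb the beta-globin group divides at its own gap of 6.57 kb. The unmarked stretches of 1122 kb before and 341.6 kb after the 4 regions do not depend on the grouping distance. Counting the 4 regions together as an isolated group does, and was not done at 5 kb. Groups at least as isolated as the beta-globin group (5 of 3378) numbered 8 of 3823 with gaps of up to 25 kb, 55 of 10050 when groups of 2 regions counted, and 47 of 7069 when these were of regions of at least 1000 bases. The count of isolated groups, the comparison of place in the list by like length, and the alternatives to both were added after seeing the data.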
